A study of Mus musculus with 14 samples.

Results

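Mouse embryos that had received guides against Tet1, Tet2 and Tet3 as zygotes were compared with control embryos, at the edited sites themselves. The 12 edited embryos are those that carry a number in the table of the Tet triple knockout (Tet-TKO), and the 4 controls are those marked C in the same table, together 16 of the 88 embryos that the series lists. At each of E7.5, E8.5, E9.5 and E10.5 there were 3 edited embryos and 1 control, and each embryo was read at all 3 genes, which gave 48 windows. Taking the letter C as the control rests on the study's description of 1 control beside 3 Tet-TKO embryos, since no label states it. The labels describe 2 Tet-TKO samples, numbers 1 and 2, to which 8 of the edited embryos belong by number. The other 4 edited embryos (number 3) and the controls have no labelled sample.

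All embryos, controls included, came from B6D2F1 females (C57BL/6J mothers, DBA2 fathers) mated to Oct4-EGFP transgenic males on a C57BL/6J background, which the labels give as C57BL/6 male and F1 female. Edited zygotes were injected with mRNA of hA3A-eBE3-Y130F, a cytosine base editor made of a human APOBEC3A deaminase joined to a Cas9 nickase, together with 1 single guide RNA (sgRNA) for each of the 3 Tet genes. According to the study's supplement, control zygotes received the editor mRNA without any sgRNA. An injected embryo can be a mosaic of differently edited cells, and a share of reads from a whole embryo does not show which changes lie on the same allele or in the same cell. The study does not state by what rule these embryos were picked for sequencing, and picking them by genotype would raise the shares of converted bases. Among its blastocysts it gave the name Tet-TKO to those with homozygous stop mutations at all 3 sites. If embryos were named here in the same way, high T shares at the targets follow from the name.

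TET1, TET2 and TET3 are dioxygenases that oxidise methylated cytosine in DNA to hydroxymethylcytosine and further products, a route by which methylation marks are removed. The catalytic domain lies at the C-terminal end of each protein, so a stop codon upstream of it leaves a protein without that domain. TET3 is the family member known for oxidising the paternal genome in the zygote, whereas TET1 and TET2 are best known in pluripotent cells. A cytosine base editor turns C into U within a short stretch of the protospacer at the end far from the PAM, and replication then fixes the change as C to T. Other C in that stretch can be converted too and are called bystanders, and an edited C can also end as G or A.

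The guide sites are shown because every value below is a share of bases at a position in them. Each is written 5′ to 3′ on the guide strand, 20 bases of protospacer followed by 3 of PAM, and positions count from 1 at the PAM-distal end. Capitals mark the target C and the C positions that are named below because they were converted.
Tet1-sgRNA3: aCaCagtCaggagaaacgcatgg
Tet2-sgRNA1: aattCaggttCtcaacgagcagg
Tet3-sgRNA2: ggtagaCCagaagcccgactggg

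Each site matched the 21 chromosomes of GRCm38 (mm10) searched exactly 1 time, and all 3 lie on the minus strand, wholly in coding sequence of the gene they target. The Tet1 protospacer is at chr10:62839073-62839092, in exon 4 of 13 of Tet1-206. Its target is position 8 (62839085), where C8T turns codon 1071 of 2039 into a stop (Q1071*), with 52.5% of the protein before it. The Tet2 protospacer is at chr3:133488137-133488156, in exon 3 of 12 of Tet2-204, and its target is position 5 (133488152), where C5T makes Q174* of 1920 codons, after 9.01% of the protein. The Tet3 protospacer is at chr6:83404641-83404660, in exon 4 of 12 of Tet3-203, and its target is position 8 (83404653), where C8T makes Q178* of 1803 codons, after 9.82% of the protein. The stop is made in 2 of 2 complete transcripts of each gene.

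The coding context of each target codon is shown over 33 codons in frame, with the CAG codon that becomes the stop TAG in capitals. These stretches are chr10:62839035-62839133 for Tet1, chr3:133488102-133488200 for Tet2 and chr6:83404603-83404701 for Tet3, all on the minus strand.
Tet1: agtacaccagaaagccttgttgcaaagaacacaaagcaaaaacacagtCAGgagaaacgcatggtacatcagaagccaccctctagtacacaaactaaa
Tet2: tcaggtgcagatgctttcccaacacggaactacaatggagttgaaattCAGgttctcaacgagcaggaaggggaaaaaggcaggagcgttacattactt
Tet3: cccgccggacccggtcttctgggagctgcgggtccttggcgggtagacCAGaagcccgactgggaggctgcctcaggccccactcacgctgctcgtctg

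The table gives the shares of A, T, C and G among the reads at 26 positions of each window (3 flanking bases, the protospacer and the PAM), printed here as percentages. No read counts are given, so the depth is unknown and no counting interval or detection limit can be stated. Shares at the targets are written more finely than those at most other positions, which are rounded to whole percents, and at E10.5 the target shares carry 6 decimals as fractions, against 4 at the other stages. The stages may thus have been handled separately, and stage and handling cannot be told apart. Embryos of 1 stage are different animals, and whether they share a litter or an injection day is not given, so the p-values measure only the spread between these embryos.

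In 2 windows non-reference bases were raised at positions that hold no C. In the Tet1 window of E7.5 embryo 1 they averaged 2.14% over 21 such positions, and 20 of them were at 2% or more. In the Tet3 window of E9.5 embryo 1 they averaged 2.32% over 19 positions, with 15 at 2% or more. The next highest edited embryo had 0.381% at Tet1 (E7.5 embryo 2, with up to 1% at a position) and 0.0237% at Tet3. The controls reached at most 0.00678% at any gene. The 0.0237% and 0.00678% come from Tet3 position 5 alone. The other positions without C there are rounded to whole percents and read 0, so these averages do not measure the background. Where leaving out both embryos changed a call or moved a called value by over 1.5 times, the value without them is given. The differences between edited and control embryos at the targets and the count of called positions kept their calls without them.

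The target C was read as T in nearly all reads of every edited embryo and in almost none of the controls. At Tet1 the edited embryos read T in 95.6% to 99.5% of reads (median 98.5%), and the controls in 0.07% at E7.5, 0.46% at E8.5, 0.09% at E9.5 and 0.102% at E10.5. The means were 98.1% ± 1.44 (SD, n = 12) and 0.181% ± 0.187 (SD, n = 4), a difference of 97.9 points (SE 0.427).

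At Tet2 the edited embryos ranged from 97.8% to 99.7% T (median 98.6%), and the controls read 0.11%, 1.19%, 0.34% and 0.218% from E7.5 to E10.5. The means were 98.6% ± 0.565 (SD, n = 12) and 0.465% ± 0.493 (SD, n = 4), 98.1 points apart (SE 0.295). At Tet3 the range in edited embryos was 96.5% to 99.8% T (median 99.2%), with controls at 0.06%, 0.46%, 0.09% and 0.104%. Its means were 98.8% ± 1.09 (SD, n = 12) and 0.179% ± 0.188 (SD, n = 4), 98.6 points apart (SE 0.329).

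The groups did not overlap at any of the 3 genes. If the edited embryos were picked or named by genotype, this separation and its p-values follow in part from that choice. An exact permutation test of the mean difference over the 1820 splits of 12 and 4 embryos (two-sided) gave p = 0.000549 at each gene, the smallest these splits allow, and the same value after Benjamini-Hochberg adjustment over the 3 genes. With embryos exchanged only within their stage the exact p was 0.0039 at each gene, again the smallest possible.

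**Figure D1:**
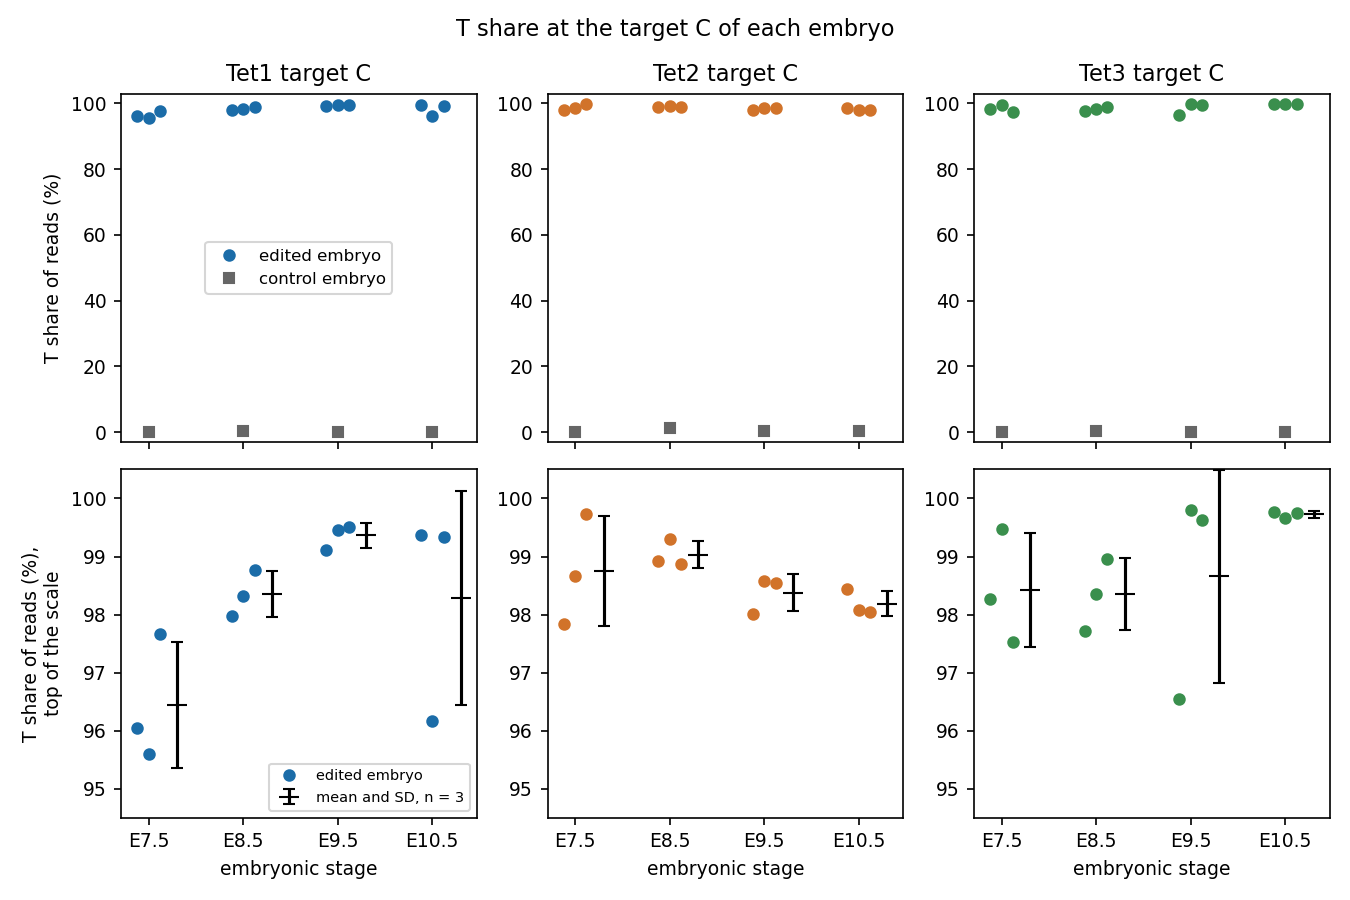
T share of reads (%) at the target C of Tet1, Tet2 and Tet3 by embryonic stage, with coloured points for single edited embryos and grey squares for the control of that stage. The lower row enlarges the top of the scale for edited embryos only, with the mean and SD of 3 embryos in black; every edited point lies at 95.6% or more and every control at 1.19% or less.

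Counted by embryo, 12 of 12 edited embryos had at least 95% T at all 3 genes, and 12 of 12 at least 90%. At 97% the count was 8, at 98% it was 6, and at 99% no edited embryo passed at all 3 genes. Of the 36 edited sites, 32 reached 97%, 27 reached 98% and 13 reached 99%. Read shares of this kind are not genotypes. If the embryos were picked or named by genotype, these counts follow in part from that choice. The gene with the lowest T was Tet1 in 5 embryos, Tet2 in 4 and Tet3 in 3. The lowest single value was 95.6% (Tet1 of E7.5 embryo 2), followed by 96.05% (Tet1 of E7.5 embryo 1), 96.2% (Tet1 of E10.5 embryo 2) and 96.5% (Tet3 of E9.5 embryo 1).

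What stood in place of T differed between these 4 windows. In E10.5 embryo 2 the Tet1 remainder was mostly unconverted C, at 3.71% against 0.132% for A plus G. In E7.5 embryo 2 A plus G made up 3.22% and C 1.18%, and in E7.5 embryo 1 they were 2.42% and 1.54%. The Tet3 target of E9.5 embryo 1 held 2.35% A plus G and 1.11% C. Of these, E7.5 embryo 1 at Tet1 and E9.5 embryo 1 at Tet3 are the windows with raised non-reference bases at other positions. E7.5 embryo 2 had the next highest average at Tet1 positions without C (0.381%), and it was kept where both embryos were left out. The share of A plus G at the targets did not pass the test between edited and control embryos at any gene (adjusted p = 0.67 at each, exact permutation test).

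Along the windows, each of the 78 positions was tested for a higher share of non-reference bases in edited embryos, and 5 were called at an adjusted p under 0.05 (6.41% of those tested, exact permutation test, adjusted p = 0.00857 for each). All 5 are reference C, so that 5 of 17 C positions were called (29.4%) and 0 of 61 A, G or T positions (0%), where no position reached an unadjusted p of 0.05 either. Outside the targets, 2 of 14 C positions were called (14.3%), Tet1 position 4 and Tet3 position 7. With only the 8 embryos whose number a labelled sample has, 4 of the 5 were called, and Tet1 position 4 was lost (mean 26.4% against 0%, adjusted p = 0.189, exact permutation test). The largest mean difference at an A, G or T position was 0.41 points. Shares at most of these positions are rounded to whole percents and read 0 in most embryos. The test could not see differences lost in that rounding, so the 0% called there is partly set by it. With embryos exchanged only within a stage no position was called over 78 tests. The smallest p is then 0.0039, and whether it passes after adjustment depends on how many positions reach it.

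**Figure D2:**
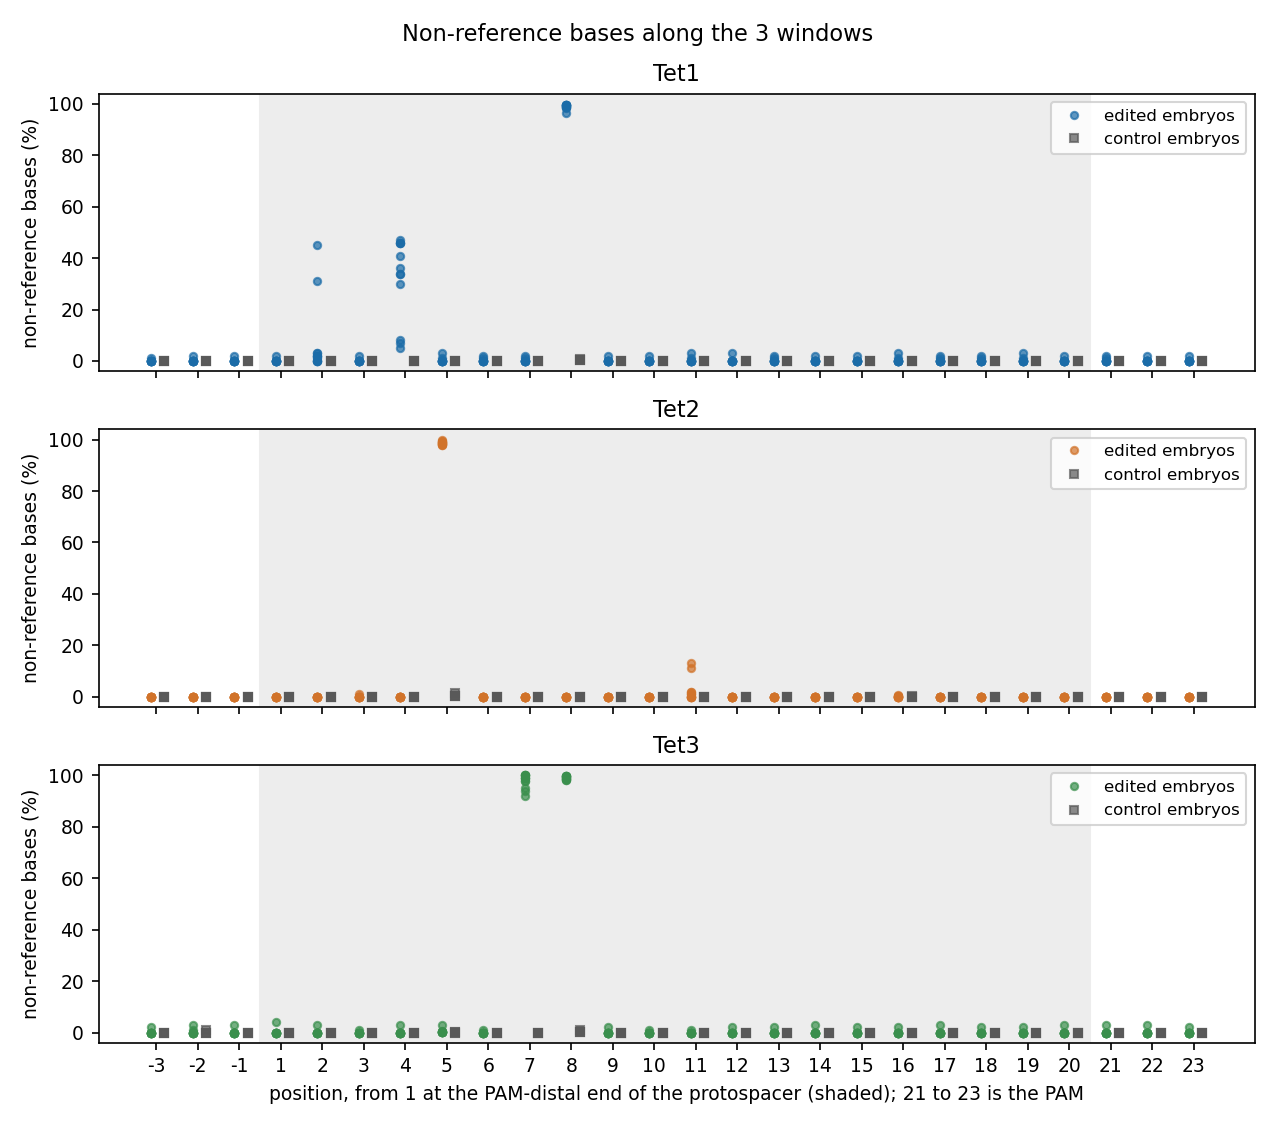
Share of reads (%) with a base other than the reference at each position of the Tet1, Tet2 and Tet3 windows, 1 point per embryo, with edited embryos in colour and controls as grey squares; the protospacer is shaded. Edited embryos stand near the top of the scale at Tet1 position 8, Tet2 position 5 and Tet3 positions 7 and 8, at intermediate heights at Tet1 position 4, and in single embryos at Tet1 position 2 (up to 45%) and Tet2 position 11 (up to 13%).

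Of the 14 C positions outside the targets, 4 had a mean T or A plus G share of at least 5% in edited embryos, or at least 10% in some edited embryo. These are described one by one. They were picked by their shares in edited embryos, so tests of edited against control embryos over these 4 alone are no independent support. The test over all 78 positions picked none beforehand. The controls read 0% T at all 4 as written. The other 10 never held more than 3% T in an edited embryo, with a highest mean of 0.333%.

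Tet1 position 4 is the third base of codon 1069, and C4T there leaves the amino acid unchanged. Edited embryos read T there in 39, 35 and 47% of reads at E7.5, 8, 46 and 46% at E8.5, 7, 34 and 46% at E9.5 and 5, 34 and 30% at E10.5 (embryos 1, 2 and 3 in that order). Every embryo held some T, 9 of 12 had 30% or more, and 3 had 5 to 8%, so that no embryo lay between 8% and 30%. The mean was 31.4% ± 16 (SD, n = 12) against 0% in the 4 controls. In the test over all 78 positions its non-reference share had adjusted p = 0.00857 (exact permutation test). With only the 8 embryos whose number a labelled sample has, that adjusted p was 0.189 (same test). No difference between stages passed the test (adjusted p = 0.661, exact permutation of embryos over stages).

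Tet1 position 2 is the first base of the same codon, and C2T makes H1069Y. It was low in most embryos, with 0 to 1% T at E7.5, 0% at E8.5 and 2 to 3% at E9.5. At E10.5 the 3 embryos held 3, 31 and 45%. The mean over all edited embryos was 7.25% ± 14.7 (SD, n = 12), which did not pass the test against the controls (adjusted p = 0.319, exact permutation test). The stage means differed by up to 26.3 points (adjusted p = 0.00519 over the 4 named positions, exact permutation of embryos over 369600 assignments), a difference carried by 2 of the 3 E10.5 embryos. The range stayed at 26.3 points but the call was lost when any of the 9 embryos of the earlier stages was left out (adjusted p up to 0.0779, exact permutation test), or both embryos with raised non-reference bases (adjusted p = 0.0921). The call was kept when an E10.5 embryo was left out, with a range of 17 points without embryo 3, 24 without embryo 2 and 38 without embryo 1.

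Tet2 position 11 is the first base of codon 176, and C11T makes L176F. T reached 10% in E7.5 embryo 1 and 13% in E8.5 embryo 3, was 1 or 2% in the other E7.5 and E8.5 embryos, and 0% in all 6 embryos of E9.5 and E10.5. The mean of 2.42% ± 4.36 (SD, n = 12) did not pass the test against controls (adjusted p = 0.319, exact permutation test), nor did the stages differ by their test (adjusted p = 0.37).

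Tet3 position 7 adjoins the target and is the third base of codon 177. C7T leaves its amino acid unchanged, whereas C7G and C7A both make D177E. This C was almost gone in every edited embryo, with 0 to 8% C left against 99 to 100% in the controls, but it did not become T alone. T made up 88, 33 and 11% at E7.5, 45, 48 and 21% at E8.5, 40, 95 and 96% at E9.5 and 72, 95 and 52% at E10.5 (embryos 1 to 3).

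G made up most of the rest at that position. Its share was 8, 50 and 51% at E7.5, 50, 50 and 69% at E8.5, 58, 5 and 3% at E9.5 and 28, 5 and 48% at E10.5. G exceeded T in 6 of 12 embryos, lay between 45 and 55% in 5, and was under 10% in 4. The means were 58% ± 30.3 T and 35.4% ± 24.1 G (SD, n = 12), each against 0% in controls. In the test over all 78 positions the non-reference share at this position had adjusted p = 0.00857 (exact permutation test).

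The stage means of T at this position lay up to 39 points apart (adjusted p = 0.412, exact permutation test), and up to 73.5 points without both embryos with raised non-reference bases (adjusted p = 0.0667).

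A was the minor product on average, at 33% in E7.5 embryo 3, 11% in E7.5 embryo 2 and 3% or less in the others. In E7.5 embryo 3 it exceeded T, which was 11%. Its mean of 4.42% ± 9.51 (SD, n = 12) did not pass the test against controls (adjusted p = 0.319 over the 4 bases of this position, exact permutation test). At the target C next to it, A plus G averaged 0.385% in the same embryos, against 39.8% at position 7.

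**Figure D3:**
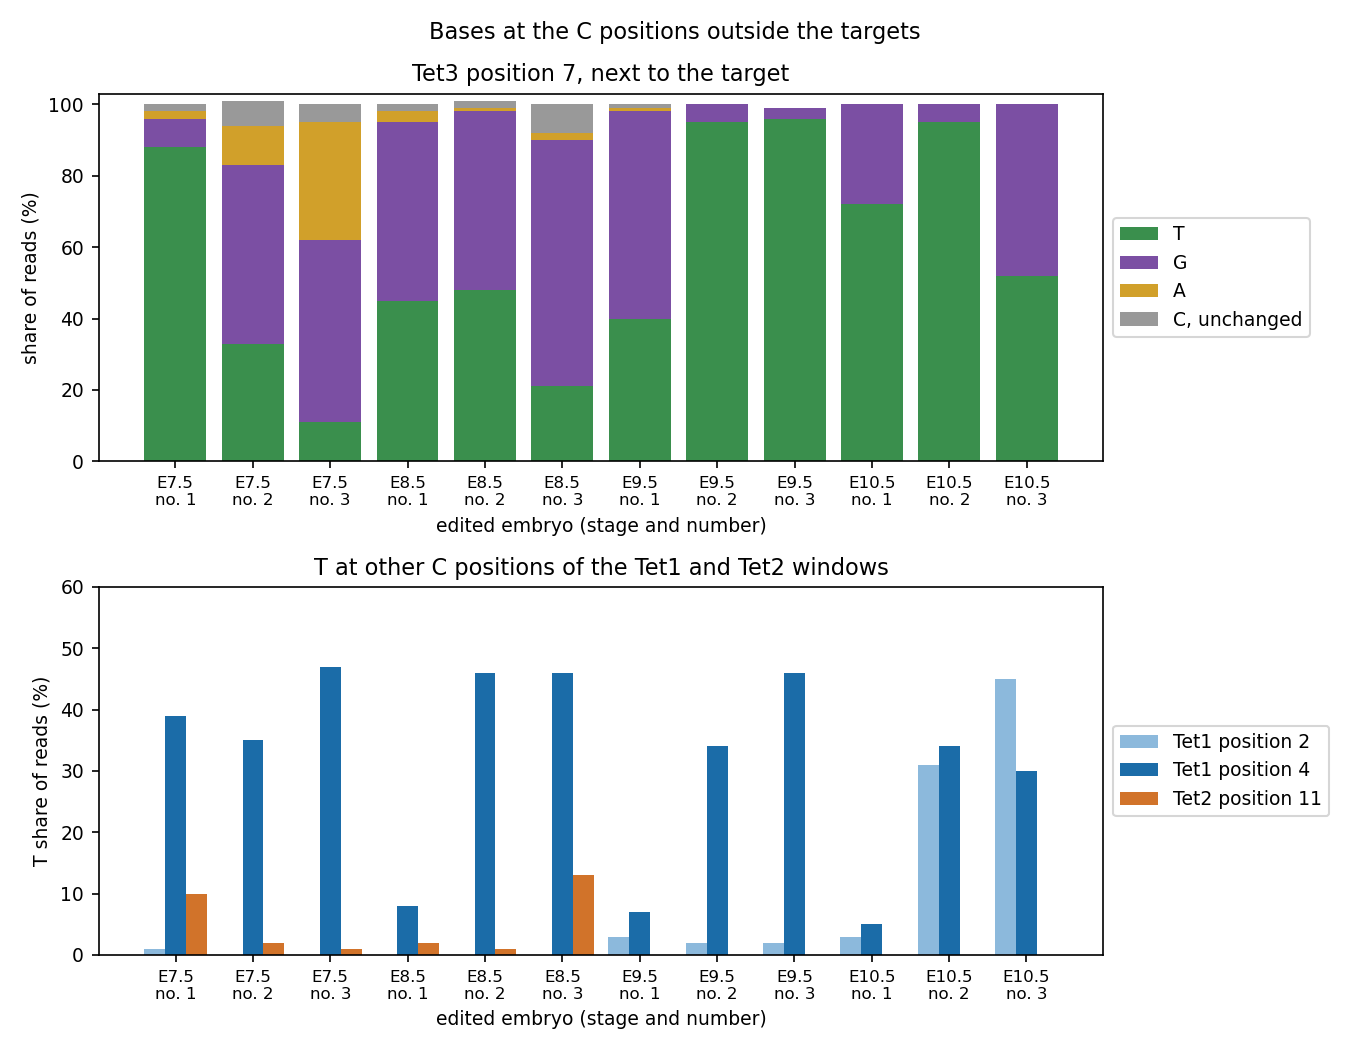
Upper panel, shares of reads (%) with T, G, A and unchanged C at Tet3 position 7, stacked for each of the 12 edited embryos (rounding in the table lets a stack end slightly off 100%). Lower panel, T share (%) at Tet1 positions 2 and 4 and Tet2 position 11 in the same embryos; G ranges from 3 to 69% at the Tet3 position, and T at Tet1 position 2 stands above 3% in only 2 embryos, both of E10.5.

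Conversion at the targets was also compared between stages within the edited embryos. At Tet1 the mean T share was 96.4% ± 1.09 at E7.5, 98.4% ± 0.391 at E8.5, 99.4% ± 0.212 at E9.5 and 98.3% ± 1.84 at E10.5 (SD, n = 3 each). The stage means lay within 2.92 points of each other, which did not pass the test (p = 0.0542, adjusted p = 0.163, exact permutation over 369600 assignments). One embryo bore on this result: without E10.5 embryo 2 the adjusted p was 0.0218. As T over T plus C the Tet1 range was 1.11 points (adjusted p = 0.684, exact permutation test).

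The Tet2 stage means ran from 98.2% at E10.5 to 99.03% at E8.5, a range of 0.845 points (adjusted p = 0.4, exact permutation test), and those of Tet3 from 98.3% at E8.5 to 99.7% at E10.5, a range of 1.38 points (adjusted p = 0.431). A p above the threshold does not show that stages were alike with 3 embryos each.

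The bases other than T were then compared between stages, in 9 measures chosen after their values had been seen: A plus G and C at each target, and G, A and C at Tet3 position 7. Each was tested in 2 ways, over the 4 stages and as E7.5 and E8.5 (6 embryos) against E9.5 and E10.5 (6 embryos), which makes 18 tests, with p adjusted over the 9 measures in each way. Since 18 tests were run on values already seen, these calls describe the embryos at hand.

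A plus G at the Tet1 target was highest at E7.5, where the embryos held 2.42, 3.22 and 1.52%. At E8.5 they held 0.72, 0.48 and 0.58%, and at E9.5 and E10.5 0.125 to 0.24%, beside 0.16 to 0.33% in the 4 controls. The stage means of 2.39, 0.593, 0.177 and 0.14% passed the test over the 4 stages (adjusted p = 0.00292, exact permutation test), the only one of the 9 measures to do so. Between the 2 earlier and the 2 later stages the difference was 1.33 points (adjusted p = 0.00974, exact permutation over 924 splits). Without both embryos that have a window of raised non-reference bases it was 1.16 points (adjusted p = 0.0119, exact permutation test). That set still held E7.5 embryo 2, whose Tet1 window averaged 0.381% at positions without C. With E7.5 embryo 2 alone left out the difference was 0.986 points (adjusted p = 0.00974, exact permutation test).

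**Figure D4:**
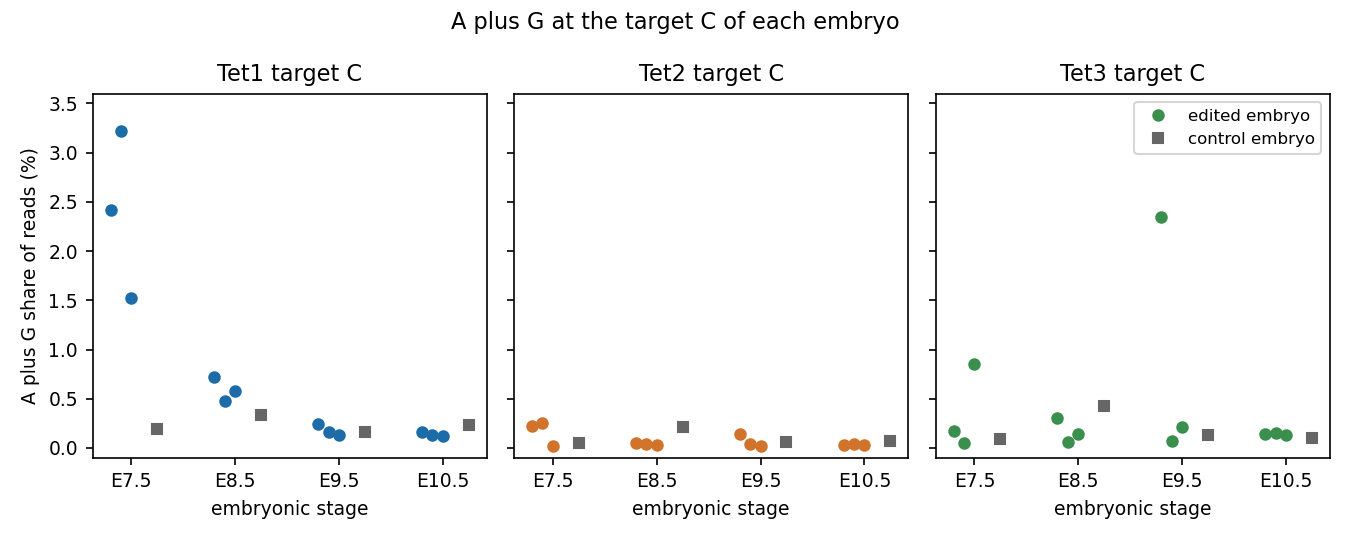
A plus G as a share of reads (%) at the target C of each gene by stage, coloured points for edited embryos and grey squares for controls. The 3 edited E7.5 embryos stand at 1.52% or more at Tet1; at Tet3 the high point is E9.5 embryo 1 at 2.35%, a window with raised non-reference bases at other positions.

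Unconverted C at Tet3 position 7 was 2 to 8% in the 6 earlier embryos and 0 to 1% in the 6 later ones (difference of means 4.17 points, adjusted p = 0.00974, exact permutation test). A at the same position was 1 to 33% in the earlier and 0 to 1% in the later embryos (8.5 points, adjusted p = 0.013, exact permutation test), a difference that was 3.63 points without E7.5 embryo 3, which held the 33%. This call was lost when any one of the 6 later embryos was left out (adjusted p up to 0.125, exact permutation test). At the Tet3 target itself unconverted C averaged 1.35% ± 0.557 in the earlier and 0.301% ± 0.398 in the later embryos (SD, n = 6 each; 1.05 points, adjusted p = 0.0146, exact permutation test). Without both embryos with a window of raised non-reference bases the 3 differences were 4.8, 10 and 1.17 points (adjusted p = 0.0119 each, exact permutation test). None of these 3 passed over the 4 stages (adjusted p = 0.12, 0.0935 and 0.12, exact permutation test).

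G at Tet3 position 7 averaged 46.3% ± 20.2 in the earlier and 24.5% ± 24.1 in the later embryos (SD, n = 6 each), which did not pass (adjusted p = 0.221, exact permutation test). It did pass without both embryos with a window of raised non-reference bases (36.2 points, adjusted p = 0.0119, exact permutation test).

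Residual C, the share of reads still holding C at a target, was followed over the 3 genes of an embryo to see whether an embryo that kept more C at one gene kept more at another. Tet1 kept 0.36 to 3.71% C, with E10.5 embryo 2 well above the next value of 1.54%. Tet2 kept 0.23 to 1.95% and Tet3 0.0922 to 1.98%. Most of these shares are no larger than 2%, and controls without a guide read T in 0.07 to 0.46% at Tet1, 0.11 to 1.19% at Tet2 and 0.06 to 0.46% at Tet3. The top T share at each gene was that of the E8.5 control. The other controls reached at most 0.102% (Tet1), 0.34% (Tet2) and 0.104% (Tet3). Minor bases thus occur without editing. T in every control was below the mean residual C of 1.07% (Tet1), 1.34% (Tet2) and 0.826% (Tet3), though single edited embryos fell within the range of the controls. Whether residual C is DNA that stayed unconverted was not tested. In 7 of 12 embryos the highest C was at Tet2, in 3 at Tet3 and in 2 at Tet1. E7.5 embryo 1 was the 1 embryo above the median of all 3 genes, and 2 embryos, E7.5 embryo 1 and E8.5 embryo 1, held more than 1% C at every gene. All 12 held more than 1% at some gene.

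Between Tet1 and Tet2, residual C gave Pearson's r = 0.214 (permutation p = 0.516, adjusted p = 0.774 over 3 gene pairs, n = 12) and Spearman's rho = -0.042 (permutation p = 0.904, adjusted p = 0.904). Without E7.5 embryo 1 and E10.5 embryo 2, the farthest from the Tet1 median, r was -0.562 (permutation p = 0.0913), so even its sign rested on them.

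Between Tet1 and Tet3, r was 0.0566 (permutation p = 0.912, adjusted p = 0.912, n = 12) and rho 0.629 (permutation p = 0.0328, adjusted p = 0.0985). Without the same 2 embryos r was 0.736 (permutation p = 0.0213, adjusted p = 0.064). E10.5 embryo 2 alone set most of that change: without it r was 0.751 (adjusted p = 0.0339, permutation test). Centred on stage means and permuted within stages, r was 0.177 (permutation p = 0.143, adjusted p = 0.353).

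Between Tet2 and Tet3, r was -0.491 (permutation p = 0.104, adjusted p = 0.312, n = 12) and rho -0.524 (permutation p = 0.082, adjusted p = 0.123). Without E7.5 embryo 3 and E8.5 embryo 2, the farthest from the Tet2 median, r was -0.192 (permutation p = 0.589). Without both embryos with a window of raised non-reference bases r was -0.803 (adjusted p = 0.0114, permutation test). Within stages r was 0.0855 (permutation p = 0.865), so the relation did not hold within stages, each of which holds 3 embryos. None of the 3 gene pairs passed the adjusted test over all 12 embryos, by r or by rho.

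**Figure D5:**
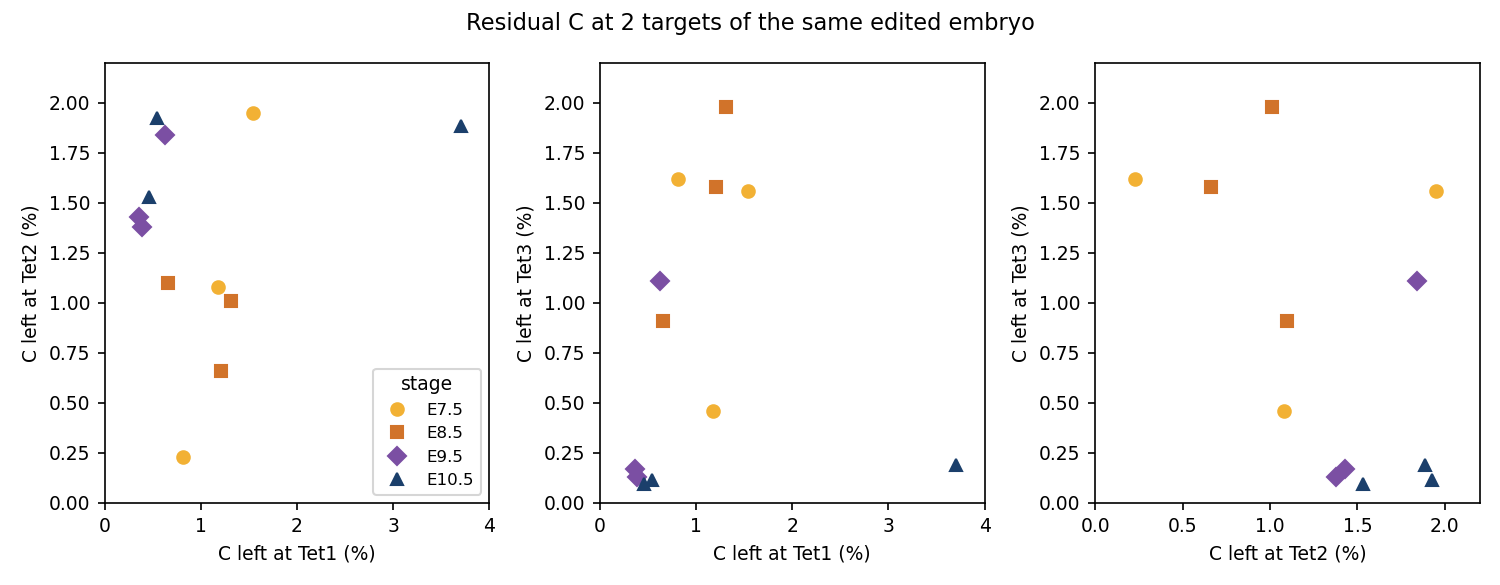
Residual C (% of reads) at 2 targets of the same embryo for the 3 pairs of Tet genes, 1 point per edited embryo, with colour and shape giving the stage. The E9.5 and E10.5 embryos lie at high Tet2 and, apart from E9.5 embryo 1 at 1.11%, low Tet3 values, and E10.5 embryo 2 stands alone at 3.71% for Tet1.

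The means at Tet2 and Tet3 differed between earlier and later stages with opposite signs. At Tet2 residual C averaged 1.01% ± 0.571 in the earlier and 1.67% ± 0.246 in the later embryos (SD, n = 6 each), a difference that did not pass over the 9 measures (adjusted p = 0.0623, exact permutation test). Without E7.5 embryo 1 it did (earlier minus later -0.849 points, adjusted p = 0.00649, exact permutation test), as it did without both embryos with raised non-reference bases (-0.814 points, adjusted p = 0.0119). At Tet3 it was lower in the later embryos, as given above.

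The difference itself was tested as Tet2 minus Tet3 within each embryo, a contrast also chosen after the values were seen. It was -0.347 ± 0.845 points in the earlier and 1.36 ± 0.385 points in the later embryos (SD, n = 6 each), and Tet2 kept more C than Tet3 in 3 of 6 earlier and 6 of 6 later embryos. The exact permutation test over 924 splits gave p = 0.00216, the smallest they allow, and adjusted p = 0.00649 over the 3 gene pairs. Without both embryos with a window of raised non-reference bases the difference between earlier and later embryos went from -1.71 to -1.99 points (adjusted p = 0.0238, exact permutation test).

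The contrasts of Tet1 with the other genes turned on single embryos. Tet1 minus Tet2 was 0.764 points higher in the earlier embryos (adjusted p = 0.177, exact permutation test) and 1.26 points higher without E10.5 embryo 2 (adjusted p = 0.00649). For Tet1 minus Tet3 the earlier-minus-later difference was -0.947 points (adjusted p = 0.162, exact permutation test), -1.19 points without E9.5 embryo 1 (adjusted p = 0.0487) and -0.386 points without E10.5 embryo 2 (adjusted p = 0.212).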

How the data were processed

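Target sites were amplified by PCR from embryo DNA and sequenced on an Illumina HiSeq instrument. The deposited table gives, for each embryo, gene and position, the fraction of reads with each base (converted here to percent), in columns that also hold the reference letters. The aligner and caller are not given in the sources used here, and mm10 is the build in the submitters' processing notes. No read counts, molecular identifiers or indels are in the values used here.

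Sites were matched to GRCm38 and annotated with GENCODE M21. Groups were compared by exact permutation over embryos (two-sided), stages by the between-stage sum of squares over all assignments, and correlations by 100000 permutations, with Benjamini-Hochberg adjustment and a threshold of 0.05. Bystander C were named where T or A plus G averaged at least 5% or reached 10% in an edited embryo. Python 3.11.15, NumPy 2.4.6 and SciPy 1.17.1 were used, and the tests were tested on simulated data. The members, lists and tests were chosen with earlier results of these data known.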

Additional observations from a re-analysis of the deposited data

Results flagged for a closer look

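The E8.5 control stood apart from the other 3 controls in 6 of 9 sets of 4 control values (gap to the nearest value over the range above 0.829; chance marks about 1 set in 20). It had 0.46% T at the Tet1 target against 0.07 to 0.102% in the others, and 99.2% C. At the Tet3 target it had 0.46% T and 99.1% C, with 0.43% A plus G against 0.09 to 0.13%. At the Tet2 target it had 0.21% A plus G against 0.05 to 0.0728%, and its 1.19% T was also the highest. These 9 sets come from the same 4 embryos and are not independent.

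Stages differed in 6 results of the edited embryos. T at Tet1 position 2 had stage means up to 26.3 points apart (17 without E10.5 embryo 3, with the call lost without any 1 embryo of an earlier stage). In the 2 earlier stages A at Tet3 position 7 was 8.5 points higher (3.63 without E7.5 embryo 3, with the call lost over 4 stages and without any 1 later embryo). Unconverted C was 4.17 points higher at Tet3 position 7 and 1.05 points higher at the Tet3 target. Both of these calls were lost over the 4 stages (adjusted p = 0.12 each, exact permutation test). A plus G at the Tet1 target was 1.33 points higher and kept its call over the 4 stages. Residual C at Tet2 minus that at Tet3 was lower in the earlier stages, with a difference of -1.71 points.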

How the results depend on the processing

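No paired analysis was possible because the controls carry no replicate number; the comparison matched by stage stands in the report. The edited-minus-control difference in T kept its direction and its call at all 3 genes under 26 alternatives each; with any 1 embryo left out it lay between 97.8 and 98.2 points at Tet1, 98.004 and 98.4 at Tet2, and 98.5 and 98.8 at Tet3. The 5 called positions became 0 with exchange within stages, where the smallest p did not pass after adjustment over 78 tests. They were 4 with the 8 labelled embryos (without Tet1 position 4) and stayed 5 without any 1 control. At a threshold of 99% the count of embryos past it at all 3 genes was 0. With any 1 edited embryo left out, the range of stage means of target T was 2.5 to 3.54 points at Tet1 (2.92 without E10.5 embryo 2, the one case that passed), 0.711 to 1.02 at Tet2 and 1.31 to 1.83 at Tet3.

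Residual C at Tet1 and Tet2 turned sign as rho (-0.042), without the 2 farthest embryos (-0.562) and without E10.5 embryo 2 (-0.186, range to 0.298 over embryos left out). At Tet1 and Tet3, r ran from -0.0154 to 0.751 with 1 embryo left out, with a negative sign without E9.5 embryo 2 (-0.0154), E9.5 embryo 3 (-0.0141) or E10.5 embryo 1 (-0.0111). At Tet2 and Tet3 it ran from -0.685 to -0.372, was 0.0855 within stages and -0.803 without both embryos with raised non-reference bases. T at the 4 named positions was tested again under 16 alternatives each. T at Tet1 position 2 and Tet2 position 11 stayed uncalled. Calls kept there at Tet1 position 4 and Tet3 position 7 are no independent support, as the positions were picked by their shares in edited embryos. As T over T plus C the Tet3 difference was 92.6 points in place of 58. With 1 edited embryo left out the differences in T ran from 3.82 to 7.91 points (Tet1 position 2) and from 30 points up to 33.8 (Tet1 position 4). At Tet2 position 11 they ran from 1.45 to 2.64 and at Tet3 position 7 from 54.5 to 62.3. Of the measures between earlier and later stages that did not pass, A plus G at the Tet3 target turned from -0.246 to 0.14 points without both such embryos and to 0.122 without E9.5 embryo 1 (-0.364 to 0.122 over embryos left out), and C at the Tet1 target from 0.104 to -0.0571 without both, -0.0207 without E9.5 embryo 2, -0.0267 without E9.5 embryo 3 and -0.00659 without E10.5 embryo 1 (up to 0.642 without E10.5 embryo 2, where it passed). The causes were not tested. Read depth is unknown, so differences under a point cannot be set against counting error. The alternatives without these embryos, the product tests and the contrast of 2 genes were chosen after seeing the data.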
